A study of Mus musculus with 18 samples.

Results

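The transcripts of 10 lysosomal genes were followed in mouse kidney cortex after injury by aristolochic acid I (AAI), in animals labelled as lacking the transcription factor Klf6 in the proximal tubule and in their floxed controls. They are the cysteine cathepsins Ctsb, Ctsc, Ctsh, Ctsk, Ctsl, Ctss and Ctsz, the aspartic cathepsin Ctsd, the lysosomal membrane glycoprotein Lamp1 and the transcription factor Tfeb. The 10 were chosen by name as lysosomal proteases and lysosome regulators, from the 24062 gene rows of the deposited table. All 10 passed the filter on low values (at least 1 CPM in at least 3 libraries, where CPM is a gene's reads after each library is scaled to the same total), as did 14604 genes in all. The 18 libraries were made from total RNA of kidney cortex of C57Bl/6 mice perfused with PBS, with 3 libraries in each of 6 groups. Both genotypes carry floxed alleles of Klf6. Those labelled Klf6PTKO (PTKO) are described as knocked out in the proximal tubule, and those labelled Klf6fl/fl (fl/fl) serve as their controls. Each genotype received AAI, a nephrotoxin of Aristolochia plants that damages proximal tubule cells, or the DMSO vehicle. The AAI cortex comes either from the end of a 3-week AAI course (the 3-week groups) or from 3 weeks of remodeling after such a course (the 6-week groups). The promoter that drives the recombination, the age of the animals and the week at which the DMSO kidneys were taken are not given in the sources used here.

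Cathepsins are proteases that are made as inactive precursors, carried to the lysosome mostly by mannose 6-phosphate receptors, and activated at acid pH. The proximal tubule is rich in lysosomes, which break down protein taken up from the filtrate. Macrophages and dendritic cells are rich in them too, and use cathepsin S to process the invariant chain of MHC class II molecules. Many lysosomal genes have E-box sequences in their promoters, which Tfeb and its relatives Tfe3 and Mitf bind.

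Reads per library ran from 11722625 to 27213219. Klf6 was at 309.7, 279.6 and 229 CPM in the 3-week libraries labelled PTKO and at 308, 273 and 256 CPM in those of fl/fl. At 6 weeks it was at 228, 254 and 369.8 CPM in the libraries labelled PTKO and 284, 201 and 270.3 CPM in fl/fl, and under DMSO at 40.2, 43.2 and 56.7 CPM against 39.7, 39.2 and 42.3 CPM in fl/fl. The genotypes overlapped in each condition, and whole cortex holds Klf6 of all its cell types, so these values do not check the genotype label. None of the 10 kidney cortex markers was at 0 throughout a group. Adipocyte markers summed to 309 CPM in 6-week replicate 2 and 39.7 CPM in DMSO replicate 2 labelled PTKO, against at most 1.57 CPM in the other libraries. Those libraries and 6-week fl/fl replicate 2, the shallowest, are the 3 named below as those that stood apart, a choice made without a test. It does not include 6-week replicate 3 labelled PTKO, whose marker sums are given with the 6-week comparison. The test pooled the spread over all 6 groups, so p-values of the more variable groups can be too small. Whether each library is a different animal is not stated, so p-values refer only to the variation among the sequenced libraries.

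The upstream sequences show how the E-box is spread over the 10 genes. In RefSeq's promoter table (GRCm38.p6), 8 of the 10 genes have an entry, and 3 of these hold the E-box core CACGTG in the 250 bases before RefSeq's start (the core reads the same on both strands). Over all windows of this length in the table, 1978 of 32851 (6.02%) hold it. Lamp1 (chr8:13158911-13159160, plus strand) has 4 cores, which begin 61, 45, 28 and 15 bases upstream, and 7 of the 32851 windows (0.0213%) have 4 or more. Ctsd (chr7:142387828-142388077, minus strand) has 2, which begin 245 and 98 bases upstream, and Ctsl (chr13:64370521-64370770, minus strand) has 1 at 236 bases. In GENCODE M21 the Ctsl gene begins further upstream and takes in its whole window, and the Ctsd gene takes in most of its window with the core at 98 bases, so those cores are upstream of RefSeq's start and not of GENCODE's. The windows of Ctsc, Ctsk, Ctss, Ctsz and Tfeb have none. Lamp1 is shown as the window with the most cores and Ctss (chr3:95526536-95526785, plus strand) as one with none, and both windows end at the base before the GENCODE gene. The sequences run 5′ to 3′ with the E-box cores in capitals.
Lamp1: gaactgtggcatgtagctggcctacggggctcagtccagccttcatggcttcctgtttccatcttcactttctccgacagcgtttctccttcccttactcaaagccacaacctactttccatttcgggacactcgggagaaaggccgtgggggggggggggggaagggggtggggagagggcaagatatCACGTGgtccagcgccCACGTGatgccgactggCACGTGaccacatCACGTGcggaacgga
Ctss: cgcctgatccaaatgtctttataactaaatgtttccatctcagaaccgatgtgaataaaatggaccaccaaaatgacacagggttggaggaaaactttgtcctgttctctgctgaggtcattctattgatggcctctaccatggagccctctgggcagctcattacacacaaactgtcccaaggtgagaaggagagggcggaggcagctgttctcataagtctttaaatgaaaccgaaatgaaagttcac
A match of these letters is a description and does not show binding.

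Per kilobase of exonic sequence, the cathepsins differed widely in level in the uninjured cortex. In the fl/fl DMSO libraries Lamp1 stood highest at 604 ± 11.3 CPM per kilobase (SD, n = 3) and Ctsd next at 361 ± 13.9. Ctsb (128 ± 3.96), Ctsz (114 ± 7.59), Ctsl (102 ± 5.11) and Ctsh (64.2 ± 2.23) followed. Exonic sequence here is the union over all GENCODE transcripts, 6489 bases over 7 transcripts for Ctsl and 1441 bases over 1 for Ctsz. In plain CPM Ctsl stood above Ctsz, at means of 660 and 164, so the order depends on this length. Ctss (12.7 ± 4.39), Tfeb (4.85 ± 0.376), Ctsc (4.77 ± 1.37) and Ctsk (2.20 ± 0.890) were the lowest. The 3 lowest cathepsins per kilobase in uninjured cortex were the 3 with the largest log2 rise under AAI. The same DMSO libraries set the ranking and the base of the fl/fl rises, so these 2 measures are not independent. Summed over all 10 genes, the share of reads was 0.739 ± 0.0506% at 3 weeks and 0.699 ± 0.0837% at 6 weeks in the libraries labelled PTKO, against 0.467 ± 0.0233% under DMSO. In fl/fl it was 1.08 ± 0.0935% at 3 weeks and 0.865 ± 0.115% at 6 weeks, against 0.443 ± 0.00869% under DMSO (SD, n = 3 each).

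**Figure D1:**
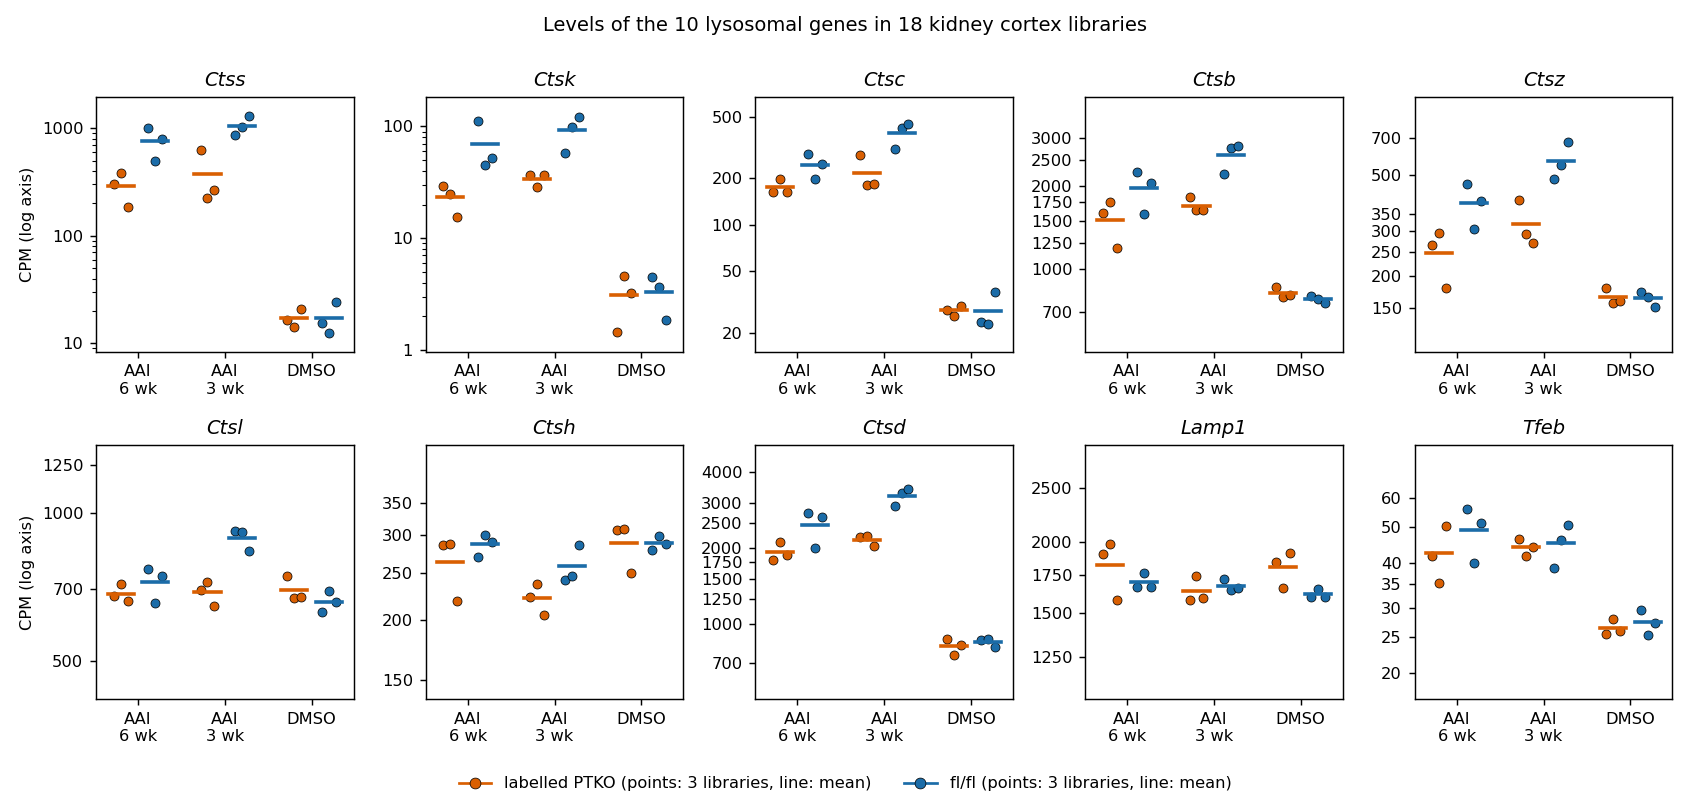
CPM of the 10 lysosomal genes (log axis, its range set per gene) in each library, with labelled PTKO left of fl/fl at 6 weeks, at 3 weeks and under DMSO; lines are means of 3 libraries. Ctss, Ctsk and Ctsc lie far above DMSO in all 12 AAI libraries, while Lamp1 and Ctsh show no such step.

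Ctss (ENSMUSG00000038642.10, mm10 chromosome 3, 95526786 to 95556403, plus strand) encodes cathepsin S, the protease of antigen-presenting cells. At 3 weeks it stood at 621, 225 and 268 CPM in the libraries labelled PTKO and at 856, 1017 and 1295 CPM in fl/fl. The 6-week levels were 306, 381 and 187 CPM in the libraries labelled PTKO and 1001, 491 and 791 CPM in fl/fl. Under DMSO it was at 16.5, 14.2 and 20.6 CPM in the libraries labelled PTKO and 15.4, 12.5 and 24.0 CPM in fl/fl. All 12 AAI libraries lay far above DMSO, no library labelled PTKO reached the lowest fl/fl library of its time, and 3-week replicate 1 stood above the other two labelled PTKO. Compared with DMSO on the log2(CPM + 1) scale, Ctss in libraries labelled PTKO rose by 4.23 ± 0.36 (adjusted p = 6.93e-08) at 3 weeks and 3.97 ± 0.36 (adjusted p = 2.56e-07) at 6 weeks (± SE, limma with Benjamini-Hochberg adjustment over all genes). In fl/fl the rises were 5.88 ± 0.36 (adjusted p = 1.17e-09) and 5.37 ± 0.36 (adjusted p = 5.88e-09). In bulk tissue, more cells of a type and more RNA per cell cannot be told apart.

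Ctsk (ENSMUSG00000028111.4, mm10 chromosome 3, 95499256 to 95509362, plus strand) is the neighbour of Ctss, 17423 bases upstream of it on the same strand, and encodes cathepsin K, the collagen-degrading protease best known from osteoclasts. At 3 weeks the levels were 37.0, 28.7 and 36.8 CPM in the libraries labelled PTKO and 57.5, 99.2 and 122 CPM in fl/fl. At 6 weeks they were 29.4, 25.04 and 15.4 CPM in the libraries labelled PTKO and 111, 44.8 and 52.3 CPM in fl/fl. DMSO levels were 1.45, 4.62 and 3.23 CPM in the libraries labelled PTKO and 4.48, 3.66 and 1.85 CPM in fl/fl. As for Ctss, the AAI libraries lay clear of DMSO and the genotypes did not overlap at either AAI time. The libraries labelled PTKO had Ctsk rises of 3.17 ± 0.38 (adjusted p = 2.21e-06) at 3 weeks and 2.60 ± 0.38 (adjusted p = 2.71e-05) at 6 weeks, and fl/fl had 4.42 ± 0.38 (adjusted p = 3.47e-08) and 3.96 ± 0.38 (adjusted p = 1.97e-07). The 7 osteoclast markers summed to 167 to 201 CPM at 3 weeks and 162 to 199 CPM at 6 weeks in the libraries labelled PTKO (118 to 133 under DMSO). In fl/fl they summed to 221 to 338 and 243 to 358 CPM (118 to 127 under DMSO). At 3 weeks the mean sum was 1.445 times that of DMSO in the libraries labelled PTKO and 2.39 times in fl/fl. The mean of Ctsk was 11.0 and 27.9 times that of DMSO. None of the 7 was at 0 throughout a group. The osteoclast fusion gene Dcstamp, the only one of them given by itself, was at 6.41, 1.73 and 3.16 CPM at 3 weeks in the libraries labelled PTKO and 7.35, 6.94 and 15.8 CPM in fl/fl. Of these 7, Acp5 and Atp6v0d2 are also in the lists of lysosomal hydrolases and proton pump subunits described below. The sum is thus not particular to osteoclasts, and the part of the markers in the Ctsk result was not tested.

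Ctsc (ENSMUSG00000030560.17, mm10 chromosome 7, 88278085 to 88310888, plus strand) encodes cathepsin C, which activates the granule proteases of neutrophils and cytotoxic lymphocytes. It stood at 282, 180.0 and 184 CPM at 3 weeks in the libraries labelled PTKO and at 311, 422 and 446 CPM in fl/fl. The 6-week values were 163, 198 and 162 CPM in the libraries labelled PTKO and 288, 198 and 248 CPM in fl/fl, against DMSO values of 22.7 to 36.8 CPM over both genotypes. The genotypes did not overlap at 3 weeks, and at 6 weeks fl/fl replicate 2 lay level with replicate 2 labelled PTKO. The rise of Ctsc was 2.88 ± 0.20 (adjusted p = 1.01e-08) at 3 weeks and 2.60 ± 0.20 (adjusted p = 5.77e-08) at 6 weeks in the libraries labelled PTKO, and 3.80 ± 0.20 (adjusted p = 3.04e-10) and 3.12 ± 0.20 (adjusted p = 4.45e-09) in fl/fl.

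Ctsd (ENSMUSG00000007891.16, mm10 chromosome 7, 142375911 to 142388038, minus strand) encodes cathepsin D, the main aspartic protease of lysosomes. Its 3-week levels were 2215, 2221 and 2024 CPM in the libraries labelled PTKO and 2918, 3282 and 3414 CPM in fl/fl. At 6 weeks they were 1795, 2114 and 1871 CPM in the libraries labelled PTKO and 2743, 1999 and 2653 CPM in fl/fl. The 6 DMSO libraries held 755 to 870.4 CPM, less than any AAI library. The genotypes were apart at 3 weeks and overlapped at 6. Ctsd rose in the libraries labelled PTKO by 1.401 ± 0.14 (adjusted p = 2.8e-07) at 3 weeks and 1.24 ± 0.14 (adjusted p = 1.91e-06) at 6 weeks, and in fl/fl by 1.91 ± 0.14 (adjusted p = 5.4e-09) and 1.52 ± 0.14 (adjusted p = 1.07e-07).

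Ctsb (ENSMUSG00000021939.8, mm10 chromosome 14, 63122462 to 63145923, plus strand) encodes cathepsin B, an abundant protease of most cells. At 3 weeks it was at 1823, 1637 and 1647 CPM in the libraries labelled PTKO and at 2213, 2746 and 2812 CPM in fl/fl. At 6 weeks the values were 1598, 1754 and 1197 CPM in the libraries labelled PTKO against 2255, 1588 and 2059.9 CPM in fl/fl, and the 6 DMSO libraries held 753 to 862 CPM. As for Ctsd, the AAI libraries lay above DMSO, and the genotypes were apart at 3 weeks only. Rises of 1.05 ± 0.16 (adjusted p = 2.4e-05) at 3 weeks and 0.87 ± 0.16 (adjusted p = 0.000218) at 6 weeks were found in the libraries labelled PTKO, and of 1.73 ± 0.16 (adjusted p = 7.31e-08) and 1.32 ± 0.16 (adjusted p = 2.13e-06) in fl/fl.

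Ctsz (ENSMUSG00000016256.10, mm10 chromosome 2, 174427493 to 174439039, minus strand) encodes cathepsin Z, a carboxypeptidase. It was at 398, 292 and 271 CPM at 3 weeks in the libraries labelled PTKO and at 483, 545 and 673 CPM in fl/fl. The 6-week libraries labelled PTKO held 265, 295 and 179 CPM and those of fl/fl 459, 306 and 394 CPM, and DMSO values ran from 152 to 180.3 CPM. The genotypes did not overlap at either AAI time, and 6-week replicate 3 labelled PTKO lay within the DMSO range. Ctsz rose in the libraries labelled PTKO by 0.93 ± 0.19 (adjusted p = 0.000401) at 3 weeks and 0.54 ± 0.19 (adjusted p = 0.0198) at 6 weeks, and in fl/fl by 1.77 ± 0.19 (adjusted p = 4.04e-07) and 1.22 ± 0.19 (adjusted p = 3.08e-05). The 6-week call in the libraries labelled PTKO was lost without DMSO replicate 2 or 3 or 6-week replicate 1 or 2 of that genotype, and the change was 0.15 (adjusted p = 0.505) after median-of-ratios scaling, which sets libraries level at the typical gene.

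Ctsl and Ctsh moved little on the CPM scale and were level or lower after median-of-ratios scaling. Ctsl (ENSMUSG00000021477.9, mm10 chromosome 13, 64359337 to 64370890, minus strand) encodes cathepsin L, and was at 697, 724 and 648 CPM at 3 weeks in the libraries labelled PTKO and at 916, 912 and 838 CPM in fl/fl. The other 12 libraries lay between 628 and 770.2 CPM, so that fl/fl at 3 weeks stood alone above every other group. There Ctsl rose by 0.43 ± 0.09 (adjusted p = 0.000475) on the CPM scale, close to the median of all tested genes (0.45), and the change was -0.04 (adjusted p = 0.725) after median-of-ratios scaling. On that scale Ctsl fell by 0.46 (adjusted p = 0.000398) at 3 weeks and 0.42 (adjusted p = 0.00131) at 6 weeks in the libraries labelled PTKO, and by 0.35 (adjusted p = 0.00352) at 6 weeks in fl/fl. Quantile normalization, another scaling, instead called Ctsl higher in all 4 AAI comparisons. Ctsh (ENSMUSG00000032359.14, mm10 chromosome 9, 90054152 to 90076089, plus strand) encodes cathepsin H, an aminopeptidase. Its 3-week values were 223, 238 and 205 CPM in the libraries labelled PTKO, against 309, 309 and 249.98 CPM under DMSO. In fl/fl they were 242, 247 and 287 CPM, against 279, 299 and 288 CPM under DMSO. The 3-week libraries labelled PTKO lay below all others of their genotype at DMSO, with a log2 difference of -0.38 ± 0.11 (adjusted p = 0.00753), and fl/fl overlapped its DMSO libraries, at -0.16 ± 0.11 (adjusted p = 0.198). At 6 weeks the difference was -0.13 ± 0.11 (adjusted p = 0.306) in the libraries labelled PTKO and -0.0084 ± 0.11 (adjusted p = 0.950) in fl/fl. After median-of-ratios scaling Ctsh fell in all 4 AAI comparisons, by 0.83 (adjusted p = 2.99e-05) and 0.53 (adjusted p = 0.00203) at 3 and 6 weeks in the libraries labelled PTKO and by 0.63 (adjusted p = 0.000299) and 0.49 (adjusted p = 0.00282) in fl/fl, and edgeR and DESeq2 called it lower in all 4.

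Lamp1 (ENSMUSG00000031447.7, mm10 chromosome 8, 13159161 to 13175338, plus strand) codes for one of the most abundant proteins of the lysosomal membrane and is widely used as a marker of lysosomes. It was at 1582, 1741 and 1589.5 CPM at 3 weeks and 1903, 1989 and 1579 CPM at 6 weeks in the libraries labelled PTKO, against 1842, 1659 and 1918 CPM under DMSO. In fl/fl the values were 1719, 1645 and 1658 CPM at 3 weeks and 1663, 1762 and 1669 CPM at 6 weeks, against 1601, 1651 and 1597 CPM under DMSO. All 18 libraries thus lay between 1579 and 1989 CPM. The log2 changes with AAI on the CPM scale were -0.14 and 0.01 in the libraries labelled PTKO and 0.05 and 0.07 in fl/fl, at 3 and 6 weeks (limma adjusted p = 0.298 to 0.948), and their 95% intervals ran from -0.39 to 0.32 at the widest. After median-of-ratios scaling the same changes were -0.59, -0.39, -0.42 and -0.41 (adjusted p = 0.00134 to 0.0249). On that scale Lamp1 fell in all 4 comparisons. Quantile normalization, which gives every library the same distribution of values, went the other way and called Lamp1 higher in all 4. At 3 weeks in the libraries labelled PTKO it gave 0.36 (limma adjusted p = 0.00548). The direction of Lamp1 thus depends on the scaling.

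Tfeb (ENSMUSG00000023990.18, mm10 chromosome 17, 47737030 to 47792419, plus strand) encodes a transcription factor that drives lysosomal and autophagy genes when it enters the nucleus, a step that transcript levels do not show. Its levels were 46.5, 41.7 and 44.3 CPM at 3 weeks and 41.6, 35.2 and 50.5 CPM at 6 weeks in the libraries labelled PTKO, against 25.5, 28.1 and 26.0 CPM under DMSO. In fl/fl they were 38.6, 46.2 and 50.7 CPM at 3 weeks and 56.2, 39.8 and 51.3 CPM at 6 weeks, against 29.7, 25.4 and 27.4 CPM under DMSO. Every AAI library lay above every DMSO library, and the genotypes overlapped in all 3 conditions. For Tfeb the rise was 0.71 ± 0.14 (adjusted p = 0.000249) at 3 weeks and 0.64 ± 0.14 (adjusted p = 0.000788) at 6 weeks in the libraries labelled PTKO, and 0.69 ± 0.14 (adjusted p = 0.000266) and 0.80 ± 0.14 (adjusted p = 7.81e-05) in fl/fl. After median-of-ratios scaling the 6-week rise in fl/fl passed (0.34, adjusted p = 0.0217). The other changes of Tfeb on that scale, which did not pass, were 0.28 (adjusted p = 0.0553) and 0.26 (adjusted p = 0.0736) in the libraries labelled PTKO and 0.24 (adjusted p = 0.0891) at 3 weeks in fl/fl.

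Counted over the 10 genes, 7 rose and 1 fell at 3 weeks in the libraries labelled PTKO, where 57.2% of all tested genes rose and 13.9% fell. At 6 weeks 7 rose and none fell in the libraries labelled PTKO (53.7% and 11.4% of all genes). In fl/fl, 8 rose and none fell at 3 weeks (58.0% and 18.2% of all genes), and 7 rose and none fell at 6 weeks (59.8% and 13.9%). So many genes moved that these counts alone say little about the 10. The median of their log2 changes was 0.99 at 3 weeks and 0.76 at 6 weeks in the libraries labelled PTKO, against 0.42 and 0.36 over all tested genes. In fl/fl it was 1.75 and 1.27, against 0.45 and 0.45. After median-of-ratios scaling, which moves the median of all genes to between 0.01 and 0.03, 6 of the 10 rose and 3 fell at 3 weeks in the libraries labelled PTKO (32.9% and 31.3% of all genes), and 5 and 3 at 6 weeks (28.8% and 28.8%). In fl/fl the scaled counts were 6 and 2 at 3 weeks (36.6% and 34.2%) and 7 and 3 at 6 weeks (34.2% and 32.3%). Ctss, Ctsk, Ctsc, Ctsd and Ctsb rose in all 4 comparisons on both scales.

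**Figure D2:**
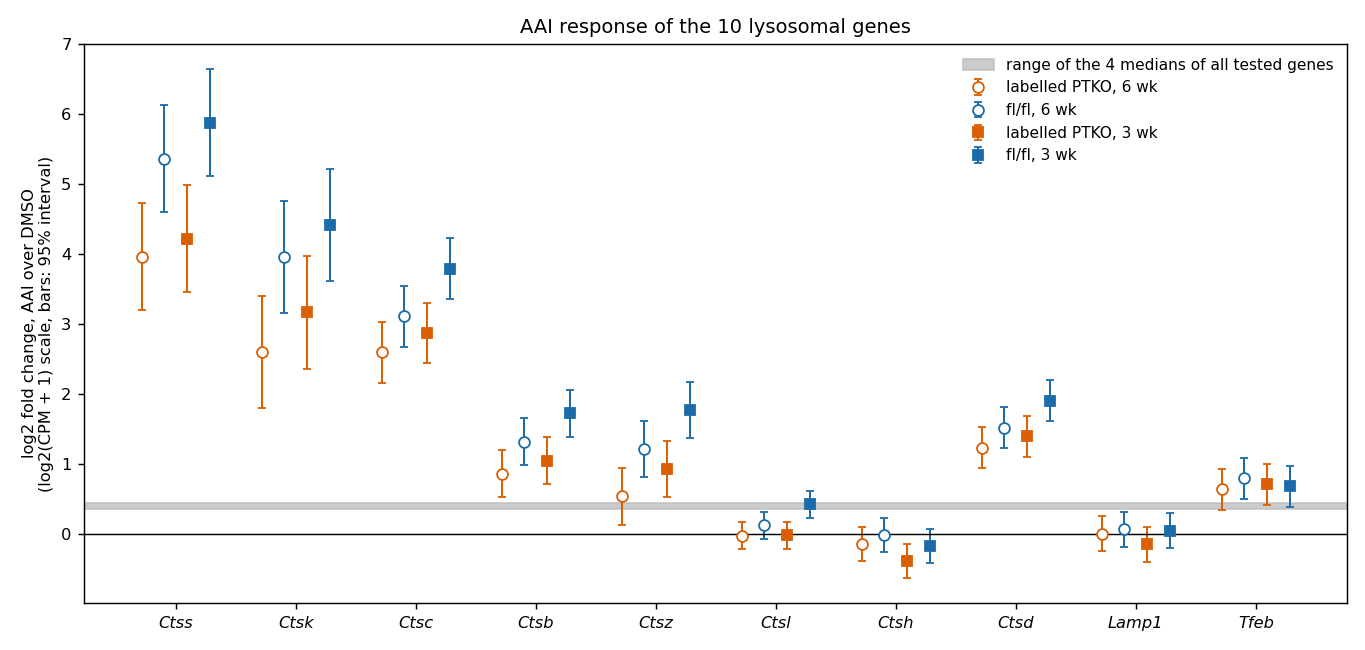
Log2 fold change of AAI over DMSO with its 95% interval for each gene, on the log2(CPM + 1) scale, in the libraries labelled PTKO and in fl/fl at 6 and 3 weeks; the grey band is the range of the medians of all tested genes, 0.36 to 0.45. Ctss, Ctsk and Ctsc lie at 2.60 to 5.88, Lamp1 and Ctsh lie under the band in all 4 comparisons, and Ctsl lies within or under it.

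The comparison of the genotypes asks whether loss of Klf6 in the proximal tubule goes with other levels of lysosomal transcripts. Under DMSO the libraries of the genotypes overlapped for each of the 10 genes except Lamp1. None passed the limma test (0.288% of all tested genes did), and edgeR and DESeq2 called none. An unadjusted p under 0.05 was found for 0 of the 10 and for 954 of the 14604 tested genes. The differences ran from -0.11 for Ctsk to 0.16 for Lamp1 (limma adjusted p = 0.977), whose libraries labelled PTKO lay just above those of fl/fl.

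At 3 weeks of AAI, 7 of the 8 cathepsins were lower in the libraries labelled PTKO than in fl/fl, where 8.0% of all tested genes were lower and 6.22% higher. Ctss averaged 371 ± 217 CPM in the libraries labelled PTKO and 1056 ± 222 CPM in fl/fl (SD, n = 3 each), with a log2 difference of -1.63 (95% interval -2.40 to -0.87, adjusted p = 0.0102). Ctsk followed at -1.36 (-2.16 to -0.56, adjusted p = 0.0275), then Ctsc at -0.88 (-1.31 to -0.45, adjusted p = 0.0128) and Ctsz at -0.83 (-1.23 to -0.43, adjusted p = 0.0123). Ctsb differed by -0.60 (adjusted p = 0.0224), Ctsd by -0.57 (adjusted p = 0.0149) and Ctsl by -0.37 (adjusted p = 0.0173). Ctsh at -0.22 (-0.46 to 0.02, adjusted p = 0.212), Lamp1 at -0.03 (-0.28 to 0.22) and Tfeb at -0.03 (-0.32 to 0.27) did not pass. For the 7 called genes and Ctsh the libraries of the genotypes did not overlap, as was so for 19.3% of all genes in this direction, and the exact permutation test gave its smallest possible two-sided p of 0.1 for each. The same 7 were lower after median-of-ratios scaling (6.63% of all genes). The count rests on few libraries. It was 0 without 3-week replicate 2 labelled PTKO, 1 without replicate 3, 3 without fl/fl replicate 2, 1 without fl/fl replicate 3 and 4 in a fit of these groups alone, with the log2 differences of the 7 still below 0 in each of these fits.

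At 6 weeks 3 of the 10 genes were lower in the libraries labelled PTKO and none higher (11.8% and 3.27% of all tested genes). Ctsk averaged 23.3 ± 7.14 CPM in the libraries labelled PTKO and 69.4 ± 36.3 CPM in fl/fl, a log2 difference of -1.46 (-2.27 to -0.66, adjusted p = 0.0200). Ctss differed by -1.38 (-2.15 to -0.62, adjusted p = 0.0208) and Ctsz by -0.66 (-1.06 to -0.26, adjusted p = 0.0311). The others that had passed at 3 weeks were at -0.47 for Ctsc (adjusted p = 0.121), -0.38 for Ctsb (adjusted p = 0.113), -0.34 for Ctsd (adjusted p = 0.0974) and -0.07 for Ctsl (adjusted p = 0.608). After median-of-ratios scaling 2 were lower (6.3% of all genes), and Ctsz no longer passed (-0.54, adjusted p = 0.0656). The count was 0 without fl/fl replicate 1 or without replicate 3 labelled PTKO, 1 without fl/fl replicate 3, 6 without fl/fl replicate 2, the shallowest library, 5 without the 3 libraries that stood apart and 0 in a fit of these groups alone. Here too the share of all tested genes called in these fits is not given. In replicate 3 labelled PTKO the summed markers were lower than in replicates 1 and 2, at 1293 against 2364 and 2763 CPM for macrophages, 31.4 against 87.7 and 105 CPM for dendritic cells, and 297 against 907 and 1076 CPM for fibroblasts. Their part in the 6-week calls was not tested.

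**Figure D3:**
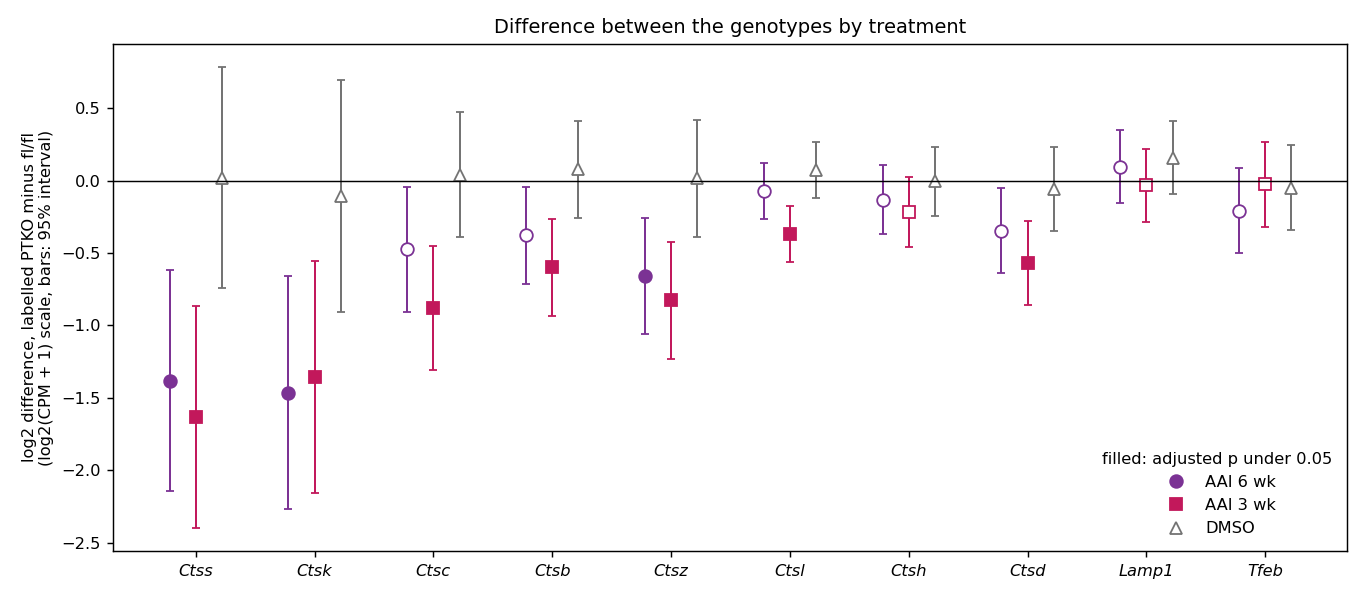
Log2 difference of the libraries labelled PTKO minus fl/fl with its 95% interval, per gene, at 6 weeks, at 3 weeks and under DMSO; filled symbols have a limma adjusted p under 0.05. The filled symbols are 7 cathepsins at 3 weeks and Ctss, Ctsk and Ctsz at 6 weeks, all below 0, and no DMSO symbol is filled.

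Whether the AAI response itself differed between the genotypes was tested by the interaction. At 3 weeks 0 of the 10 genes passed the limma test (0.281% of all tested genes did). An unadjusted p under 0.05 was found for 7 of the 10, all with the smaller change in the libraries labelled PTKO, and for 2711 of the 14604 tested genes. There edgeR called none, and DESeq2 called Ctsb, Ctsd and Ctsl. Of the 14604 tested genes, edgeR called 18, limma 41 and DESeq2 558 in this interaction. Ctss had the largest 3-week interaction at -1.65 (-2.74 to -0.57, adjusted p = 0.110), and Ctsl the smallest adjusted p, at -0.44, adjusted p = 0.0960. The 3-week interaction gave 2 calls in a fit of its 4 groups alone and 2 without 3-week replicate 1 labelled PTKO, and the share of all tested genes called there is not given. At 6 weeks 0 passed the limma test (0.0685% of all genes did), and neither edgeR nor DESeq2 called any. An unadjusted p under 0.05 was found for 3 of the 10 and for 2132 of the 14604 tested genes. The 6-week interaction was -1.402 for Ctss (adjusted p = 0.254) and -1.36 for Ctsk (adjusted p = 0.278).

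From 3 to 6 weeks, 2 of the 10 genes fell in fl/fl (6.07% of all tested genes did). Ctsc averaged 245 ± 44.9 CPM at 6 weeks and 393 ± 71.9 CPM at 3 weeks in fl/fl (SD, n = 3 each), a log2 difference of -0.68, adjusted p = 0.0380. Ctsl averaged 723 ± 60.2 CPM at 6 weeks and 889 ± 44.1 CPM at 3 weeks, a log2 difference of -0.30, adjusted p = 0.0412. Ctsz (-0.56, adjusted p = 0.0630), Ctsd (-0.39, adjusted p = 0.0710), Ctsb (-0.40, adjusted p = 0.1001), Ctss (-0.51, adjusted p = 0.360) and Ctsk (-0.47, adjusted p = 0.434) did not pass. The count of 2 was 0 without fl/fl 3-week replicate 2 or 3 or 6-week replicate 2 or 3, 4 without 6-week replicate 1, and 1 without 3-week replicate 1, DMSO replicate 1, 2 or 3 of fl/fl, or DMSO replicate 2 or 6-week replicate 1 labelled PTKO. It was also 0 with no filter on low values, in a fit of these groups alone and without the 3 libraries that stood apart, and 5 with DESeq2. In either direction DESeq2 called 2486 of all tested genes here and limma 1932. For the other fits that share is not given. In the libraries labelled PTKO 0 of the 10 passed the limma test between 6 and 3 weeks (11.2% of all tested genes did in either direction), and edgeR and DESeq2 called none. There 1 of the 10, Ctsh, had an unadjusted p under 0.05, as did 4092 of the 14604 tested genes. Ctsh averaged 264 ± 39.4 CPM at 6 weeks and 222 ± 16.5 CPM at 3 weeks, and it passed without 6-week replicate 3. The test of the later change in PTKO against that in fl/fl called 0 of the 10 (0.0% of all genes), with no call by edgeR or DESeq2. Ctsl alone of the 10 had an unadjusted p under 0.05, beside 1387 of the 14604 tested genes. At 6 weeks Ctss still averaged 291 ± 98.04 CPM in the libraries labelled PTKO, against 17.1 ± 3.24 CPM under DMSO, and 761 ± 257 CPM in fl/fl, against 17.3 ± 5.96 CPM under DMSO.

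The macrophage markers rose with AAI, as did Ctss, Ctsk, Ctsc, Ctsd, Ctsb and Ctsz, while Ctsl and Ctsh moved little on the CPM scale. The 14 markers summed to 2031 to 3908 CPM at 3 weeks and 1293 to 2763 CPM at 6 weeks in the libraries labelled PTKO, against 218 to 245 CPM under DMSO. In fl/fl the sums were 5750.2 to 9505 CPM at 3 weeks and 3336 to 5744 CPM at 6 weeks, against 218 to 287 CPM under DMSO. At 3 weeks the mean sum in the libraries labelled PTKO was 0.343 of that in fl/fl, beside ratios of mean CPM of 0.352 for Ctss, 0.368 for Ctsk, 0.548 for Ctsc and 0.672 for Ctsd. The ratios of Ctsz (0.566), Ctsb (0.657), Ctsl (0.776) and Ctsh (0.859) also lay further from that of the markers than those of Ctss and Ctsk. At 6 weeks the ratio of the marker sums was 0.448, beside 0.383 for Ctss, 0.336 for Ctsk, 0.713 for Ctsc and 0.782 for Ctsd. It was 0.638 for Ctsz, 0.771 for Ctsb, 0.948 for Ctsl and 0.919 for Ctsh. The 7 dendritic cell markers summed to 86.1 to 214 CPM and 31.4 to 105 CPM at 3 and 6 weeks in the libraries labelled PTKO (10.4 to 13.7 under DMSO), and to 267 to 438 CPM and 157 to 342 CPM in fl/fl (13.6 to 21.8 under DMSO). The 9 fibroblast markers summed to 1637 to 2024 CPM and 297 to 1076 CPM in the libraries labelled PTKO (156 to 316 under DMSO), and to 3533 to 4552 CPM and 1618 to 2722 CPM in fl/fl (164 to 368 under DMSO). The mean sum in the libraries labelled PTKO over that in fl/fl was 0.432 and 0.308 for dendritic cells at 3 and 6 weeks. For fibroblasts it was 0.46 and 0.361. At 6 weeks the ratios of Ctss and Ctsk lay nearer to that of the fibroblast markers than to that of the macrophage markers. The 12 proximal tubule markers ran the other way, with 6955 to 9729 CPM and 8231 to 11867 CPM in the libraries labelled PTKO (25824 to 28033 under DMSO), and 3458 to 6118 CPM and 4964 to 8741 CPM in fl/fl (25007 to 27273 under DMSO). No marker of these lists was at 0 throughout a group. The part of these cell types in the cathepsin results was not tested.

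Set against the macrophage markers library by library, the cathepsins behaved differently. Per 1000 CPM of summed markers, Ctss stood at 127 ± 27.6 CPM at 3 weeks and 137 ± 7.58 CPM at 6 weeks in the libraries labelled PTKO, against 74.9 ± 17.3 under DMSO. In fl/fl it stood at 132 ± 18.7 and 157 ± 14.7 CPM, against 69.8 ± 13.001 under DMSO (SD, n = 3 each). On this scale the genotypes overlapped at 3 weeks, those labelled PTKO lay below fl/fl at 6 weeks, and each AAI library still lay above the DMSO libraries. Ctsk stood at 12.97 ± 3.09 and 11.1 ± 1.82 CPM in the libraries labelled PTKO, against 13.7 ± 7.25 under DMSO, and at 11.2 ± 1.43 and 14.2 ± 4.73 CPM in fl/fl, against 14.4 ± 7.04 under DMSO. Every pair of the 6 groups overlapped for Ctsk. Ctsd, whose level in uninjured cortex is high, was lower per marker in all AAI libraries, at 834 ± 263 and 990.4 ± 395 CPM in the libraries labelled PTKO, against 3546 ± 227 under DMSO, and at 409 ± 84.9 and 528 ± 63.5 CPM in fl/fl, against 3554 ± 637 under DMSO. These ratios are descriptions, with no test.

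**Figure D4:**
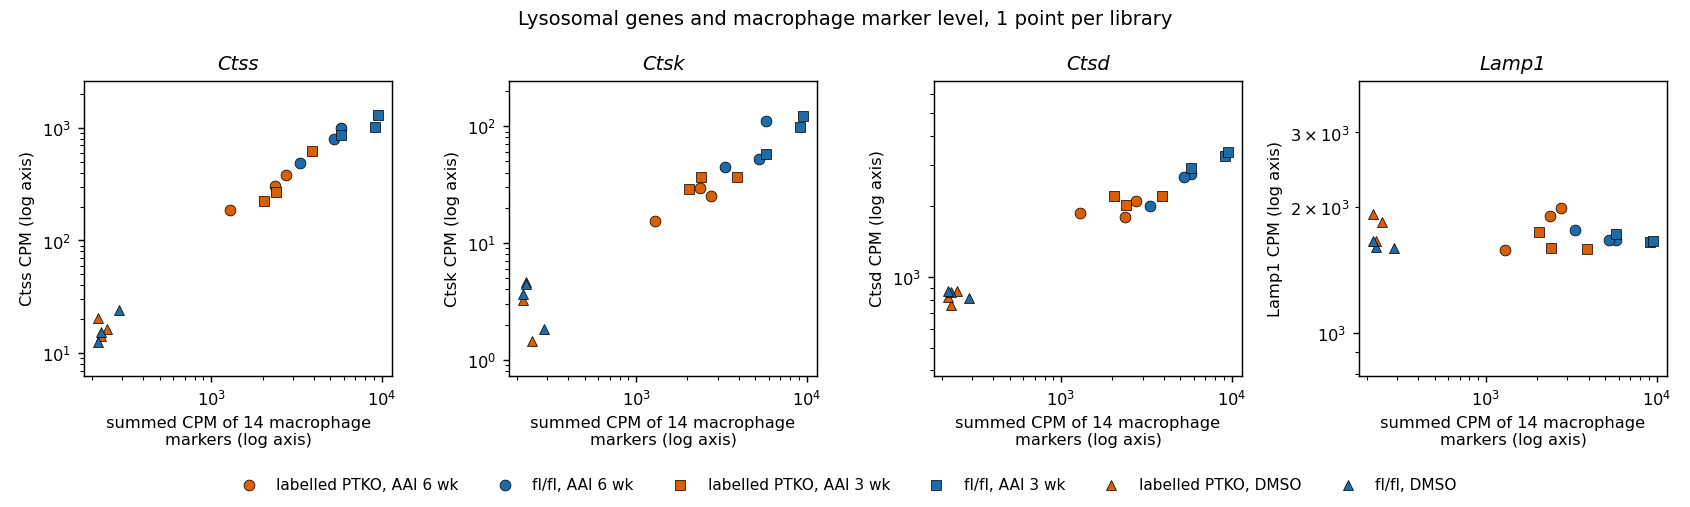
CPM of Ctss, Ctsk, Ctsd and Lamp1 against the summed CPM of 14 macrophage markers (both log axes), 1 point per library. Ctss and Ctsk climb with the markers over all 18 libraries, Ctsd climbs less, and Lamp1 stays between 1579 and 1989 CPM.

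The genes most alike to each member were named by Pearson's correlation of log2 values over the 12 AAI libraries, which share treatment and differ in genotype and time, so the values are descriptions. Srgn (0.990) and Cd53 (0.987) were among those most like Ctss, and over all 18 libraries Tyrobp (0.998), an adaptor of myeloid receptors, came first. For Ctsc they were Nlrp3 (0.979), Cmklr1 (0.979) and Tmsb4x (0.978), and over 18 libraries C1qb (0.996), a complement component made by macrophages. Ctsk stood nearest to Cxcl14 (0.979), Vash1 (0.975) and Mmp19 (0.975), the last of them a matrix metalloproteinase. Ctsb came nearest to Ncf4 (0.9795) and Ctsz to Csk (0.987). Gusb, the lysosomal beta-glucuronidase, was only at rank 3 for both Ctsb (0.979) and Ctsz (0.984). Ctsd came nearest to Sgpl1 (0.977), Ctsl to Angpt4 (0.965) and Ctsh to Wsb2 (0.932). Lamp1 was nearest to Scpep1 (0.891), a serine carboxypeptidase, and Tfeb to Smarcd1 (0.923). Among the members over these 12 libraries, Ctsb, Ctsc, Ctsd, Ctsk, Ctss and Ctsz correlated with each other at 0.871 to 0.974. Lamp1 correlated with those 6 at -0.318 to -0.106 and with Tfeb at -0.701.

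Among the natural inhibitors of the cathepsins, all 5 that could be tested of 12 rose in all 4 AAI comparisons on both scales. Over all tested genes, 53.7% to 59.8% rose on the CPM scale and 28.8% to 36.6% after median-of-ratios scaling. A low gene can pass the filter through its AAI libraries alone, so the count of 5 is a description only. Cstb (cystatin B) averaged 123 ± 14.3 CPM at 3 weeks in the libraries labelled PTKO, against 48.0 ± 1.08 CPM under DMSO (log2 change 1.34, adjusted p = 3.28e-08), and 192 ± 20.1 CPM in fl/fl, against 44.8 ± 2.31 CPM under DMSO (2.07, adjusted p = 2.1e-10). Cst3 (cystatin C) rose at 3 weeks by 1.11 ± 0.15 (adjusted p = 1.16e-05) in the libraries labelled PTKO and by 1.57 ± 0.15 (adjusted p = 1.69e-07) in fl/fl. Between the genotypes at 3 weeks, Cstb (-0.63, adjusted p = 0.00290) and Cst3 (-0.55, adjusted p = 0.0285) were lower in the libraries labelled PTKO on both scales. At 6 weeks Cst3 (-0.48, adjusted p = 0.0465) and Cst7 (-1.04, adjusted p = 0.0323), a cystatin of leukocytes, were lower on the CPM scale and did not pass after median-of-ratios scaling.

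Of the 14 other cathepsin genes, 5 could be tested. At 3 weeks 2 of them rose in the libraries labelled PTKO and 3 in fl/fl (57.2% and 58.0% of all tested genes). After median-of-ratios scaling 2 rose and 1 fell in the libraries labelled PTKO (32.9% and 31.3% of all genes). In fl/fl 1 rose and 1 fell on that scale (36.6% and 34.2%). Ctsw, a protease of cytotoxic lymphocytes, averaged 10.9 ± 10.2 CPM at 3 weeks in the libraries labelled PTKO, against 0.507 ± 0.311 CPM under DMSO (2.68, adjusted p = 8.61e-05), and 11.99 ± 5.39 CPM in fl/fl, against 0.525 ± 0.284 CPM under DMSO (3.03, adjusted p = 1.82e-05). The DMSO means of Ctsw lay under the 1 CPM of the filter, so it entered the test through its AAI libraries. Its rise and its place in these counts are therefore descriptions only. The 3-week libraries labelled PTKO held 22.6, 4.26 and 5.87 CPM of Ctsw, so that replicate 1, the one high in Ctss, stood above the other two. That library also had the highest sum of T and B cell markers of its group, 110.2 CPM beside 37.0 and 56.1 CPM. Ctso rose at 3 weeks by 0.998 ± 0.08 (adjusted p = 5.26e-08) in the libraries labelled PTKO and by 0.53 ± 0.08 (adjusted p = 2.67e-05) in fl/fl, where the change was 0.07 (adjusted p = 0.427) after median-of-ratios scaling.

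The balance of the remaining lysosomal genes depended on the scale. At 3 weeks, 57.2% of all tested genes rose and 13.9% fell in the libraries labelled PTKO, and 32.9% and 31.3% after median-of-ratios scaling. In fl/fl 58.0% rose and 18.2% fell, and 36.6% and 34.2% after that scaling. These shares stand beside the counts of every list that follows. Of 33 other hydrolases, 10 rose and 8 fell at 3 weeks in the libraries labelled PTKO, and 6 and 18 after median-of-ratios scaling. In fl/fl 17 rose and 9 fell at 3 weeks, and 9 and 14 after that scaling, with medians of 0.21 and -0.25 on the log2 scale. Hydrolases that rose on both scales at 3 weeks in fl/fl included Pla2g15, a lysosomal phospholipase (2.59, adjusted p = 1.17e-09), the acid ceramidase Asah1 (1.34, adjusted p = 1.78e-09) and Hexa, a subunit of beta-hexosaminidase (2.18, adjusted p = 3.42e-09). At 3 weeks 8 of the 33 were lower in the libraries labelled PTKO than in fl/fl (7 after scaling), and 6 at 6 weeks (2 after scaling). Of all tested genes 8.0% were lower at 3 weeks (6.63% after scaling) and 11.8% at 6 weeks (6.3% after scaling). Gusb averaged 88.5 ± 18.7 CPM in the 3-week libraries labelled PTKO and 179 ± 32.4 CPM in fl/fl (-1.01, adjusted p = 0.00693). Gla, the alpha-galactosidase, differed by -0.86 (adjusted p = 0.00728) and Hexa by -0.72 (adjusted p = 0.00797).

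Of 19 other lysosomal membrane proteins tested, 11 rose and 4 fell at 3 weeks in the libraries labelled PTKO (5 and 6 after median-of-ratios scaling), and 10 rose and 3 fell in fl/fl (7 and 9 after that scaling). Laptm5, a membrane protein of blood cells, averaged 249 ± 89.8 CPM in the libraries labelled PTKO, against 14.5 ± 1.99 CPM under DMSO (3.96, adjusted p = 3.6e-08), and 523 ± 136 CPM in fl/fl, against 17.1 ± 6.24 CPM under DMSO (4.87, adjusted p = 1.96e-09). Laptm5 (-1.09, adjusted p = 0.0324), the cholesterol exporter Npc1 (-0.56, adjusted p = 0.00977) and the chloride-proton exchanger Clcn7 (-0.38, adjusted p = 0.0363) were among the 4 lower in the libraries labelled PTKO at 3 weeks. Of the 3 activators and lipid carriers, the cholesterol carrier Npc2 rose at 3 weeks by 1.02 ± 0.13 (adjusted p = 4.91e-06) in the libraries labelled PTKO and by 1.73 ± 0.13 (adjusted p = 9.71e-09) in fl/fl. Among the 16 tested subunits of the vacuolar proton pump, which acidifies the lysosome, 3 rose and 4 fell at 3 weeks in the libraries labelled PTKO, and 0 and 12 after median-of-ratios scaling. In fl/fl 9 rose and 4 fell, and 3 and 8 after that scaling, with Atp6v0a1 at 0.80, adjusted p = 1.55e-06 and Atp6v1a at -0.91, adjusted p = 1.71e-05. Of the 6 genes of mannose 6-phosphate sorting, 3 rose and 1 fell at 3 weeks in the libraries labelled PTKO (1 and 3 after that scaling) and 3 rose and 1 fell in fl/fl (3 and 3). Nagpa, the uncovering enzyme of this route, was at 0.75, adjusted p = 0.000334 in the libraries labelled PTKO, where it did not pass after scaling, and at 1.45, adjusted p = 2.66e-07 in fl/fl.

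**Figure D5:**
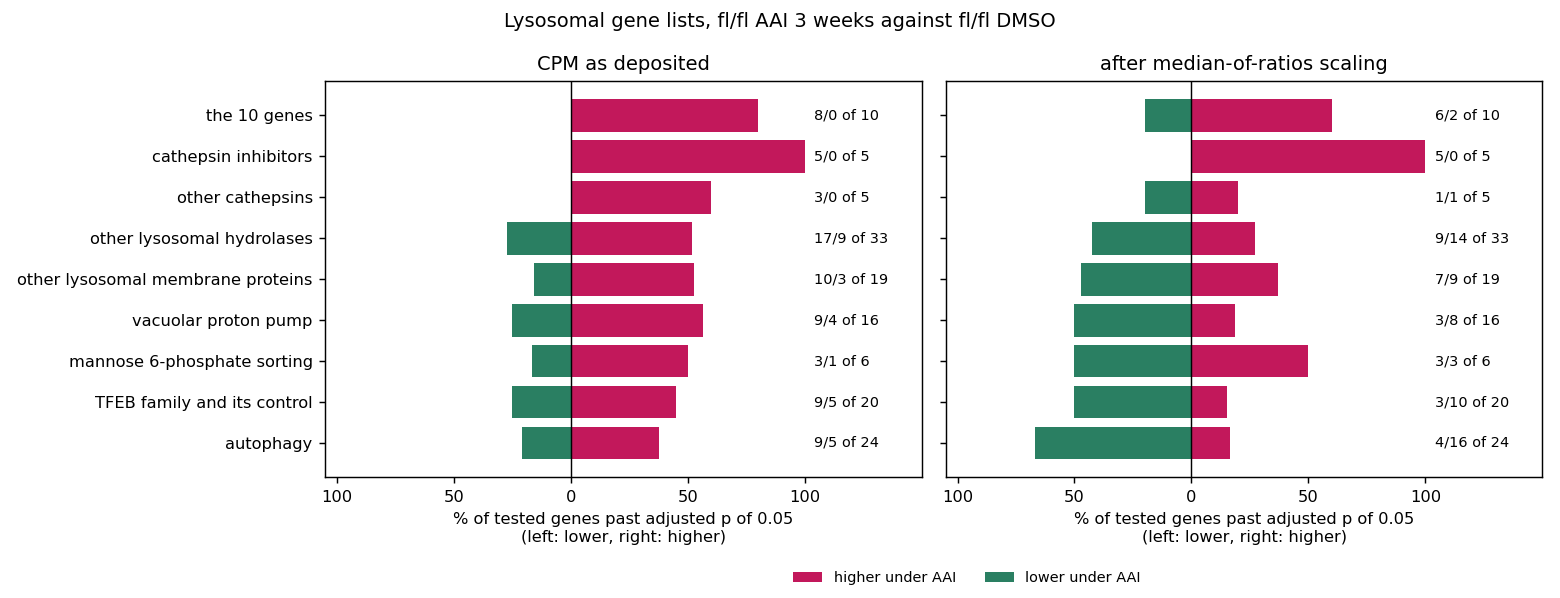
Percent of the tested genes of each list that passed a limma adjusted p of 0.05 at 3 weeks of AAI against DMSO in fl/fl, higher to the right and lower to the left, on the CPM scale and after median-of-ratios scaling. The 5 cathepsin inhibitors that passed the filter rose on both scales, while the autophagy list had 9 higher and 5 lower on the CPM scale and 4 and 16 after scaling. Of all tested genes, 58.0% rose and 18.2% fell on the CPM scale, and 36.6% and 34.2% after scaling.

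Tfe3 and Mitf, relatives of Tfeb that also drive lysosomal genes, rose on both scales in all 4 AAI comparisons. Tfe3 averaged 78.4 ± 8.22 CPM at 3 weeks in the libraries labelled PTKO, against 36.2 ± 3.01 CPM under DMSO (1.09, adjusted p = 9.96e-07), and 103 ± 14.6 CPM in fl/fl, against 37.1 ± 0.867 CPM under DMSO (1.44, adjusted p = 2.76e-08). Mitf rose at 3 weeks by 1.04 ± 0.15 (adjusted p = 1.33e-05) in the libraries labelled PTKO and by 1.404 ± 0.15 (adjusted p = 3.4e-07) in fl/fl. Tfec, a further relative named here after its values were seen, was at 0.08 (adjusted p = 0.692) and 0.14 (adjusted p = 0.483) at 3 and 6 weeks in the libraries labelled PTKO. In fl/fl Tfec rose by 0.40 (adjusted p = 0.0431) and 0.46 (adjusted p = 0.0240) on the CPM scale, and it did not pass after median-of-ratios scaling (adjusted p = 0.833 and 0.998). Mtor, the kinase that holds these factors in the cytoplasm, averaged 176 ± 29.8 CPM at 3 weeks in the libraries labelled PTKO, against 333 ± 68.7 CPM under DMSO (-0.91, adjusted p = 0.000210), and 116 ± 10.9 CPM in fl/fl, against 391 ± 15.6 CPM under DMSO (-1.75, adjusted p = 1.5e-07). Between the genotypes at 3 weeks Mtor was higher in the libraries labelled PTKO (0.59, adjusted p = 0.0322). Of the 20 genes of this family and its control tested, 8 rose and 6 fell at 3 weeks in the libraries labelled PTKO (2 and 12 after median-of-ratios scaling), and 9 rose and 5 fell in fl/fl (3 and 10). Of 24 autophagy genes, 7 rose and 6 fell in the libraries labelled PTKO (2 and 18 after that scaling) and 9 rose and 5 fell in fl/fl (4 and 16). Atg7, an enzyme of autophagosome formation, rose by 0.75 ± 0.097 (adjusted p = 5.06e-06) in the libraries labelled PTKO and by 0.92 ± 0.097 (adjusted p = 3.63e-07) in fl/fl. Between the genotypes at 3 weeks 1 of the 24 passed, Gabarap at -0.29, adjusted p = 0.0260, and none did after that scaling.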

How the data were processed

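Total RNA of kidney cortex was sequenced in 18 libraries with a stranded total RNA kit, per the labels' protocols. The authors deposited CPM (counts per library scaled to the same total) for 24062 genes. The submitters' processing notes name bcl2fastq 2.19, kallisto and mm10. All 433116 values are whole reads to within 0.01 read (100% of values), so reads were recovered for edgeR and DESeq2 as alternatives. Between the genotypes at 3 weeks limma called 2077 genes, edgeR 1964 and DESeq2 2705. The 14604 genes that reached 1 CPM in 3 or more libraries entered limma 3.58.1 (R 4.3.3), run on log2(CPM + 1), with 6 group means, 12 residual degrees of freedom, a variance trend and Benjamini-Hochberg adjustment over all genes. A call is an adjusted p under 0.05. A gene under 1 CPM in all DMSO libraries can pass the filter only through its AAI libraries, which favours a rise. A fold change on this scale understates the change of low genes. Alternatives (edgeR 4.0.16, DESeq2 1.42.0, other scalings and filters, each library left out) are in the closing section. Gene positions come from GENCODE M21. Reads ran from 11722625 to 27213219 per library. The members, gene lists and marker lists were chosen with earlier results of these data known. All 10 members are reported, and of each other list at most 3 that passed in the comparison described, taken by adjusted p. Likeness is named by the highest Pearson correlation. A gene that met the likeness rule is not reported here.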

Additional observations from a re-analysis of the deposited data

How the results depend on the processing

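Among the single-gene results under the alternatives other than leaving out a library, 1236 kept their direction and side of the threshold, 34 became calls, 32 lost the call and 18 reversed. The reversals were small changes of Ctsl and Lamp1. After median-of-ratios scaling Ctsl was at -0.038 and -0.35 at 3 and 6 weeks in fl/fl, and Lamp1 at -0.39 at 6 weeks in the libraries labelled PTKO and at -0.42 and -0.41 in fl/fl. With edgeR the same values were -0.057, -0.35, -0.35, -0.43 and -0.41, and with DESeq2 -0.039, -0.35, -0.38, -0.42 and -0.41. Quantile normalization gave 0.29 and 0.27 for Ctsl at 3 and 6 weeks in the libraries labelled PTKO, and 0.36 for Lamp1 at 3 weeks. It called both genes higher in all 4 AAI comparisons. Genes lower with AAI numbered 3 and 3 in the libraries labelled PTKO at 3 and 6 weeks and 2 and 3 in fl/fl after median-of-ratios scaling, with edgeR and with DESeq2, against 1, 0, 0 and 0. For fl/fl at 6 against 3 weeks, 2 genes fell, but 0 with no filter, 1 after quantile normalization, 0 with the compared groups alone, 0 without the 3 libraries that stood apart, 1 with edgeR and 5 with DESeq2. With the compared groups alone, genes lower in the libraries labelled PTKO numbered 4 at 3 weeks and 0 at 6 weeks, and the 3-week interaction called 2 (3 with DESeq2). Over all tested genes DESeq2 called 558 in that interaction, against 41 in the main fit. Without the 3 libraries that stood apart the 6-week count was 5. The cause was not tested.

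Leaving out 1 library at a time, the genes lower in the libraries labelled PTKO ranged from 0 to 7 at 3 weeks and from 0 to 6 at 6 weeks, and those lower in fl/fl at 6 against 3 weeks from 0 to 4. The 3-week interaction ranged from 0 to 2, and genes higher in the libraries labelled PTKO at 6 against 3 weeks from 0 to 1. Replicate numbers did not pair the libraries: the deviations of libraries with the same number correlated at -0.3723 to 0.2356, and 6 pairs lay over 0.1. With the replicate block, 1 gene fell in fl/fl at 6 against 3 weeks, and no other count of calls moved by over 1.5 times. A count of 0 allows 0.110 to 0.256 CPM by library, under the lowest value of any member (Ctsk at 1.45 CPM in a DMSO library labelled PTKO), and this limit covers counting error only. Groups of 3 libraries were not tested for outliers.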
